A study of Mus musculus with 8 samples.

Results

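The genes described here are the 43 enzymes that build and modify glycosaminoglycan chains, taken from the 39179 genes of the count files by an exact match of the gene symbol. They comprise 5 enzymes of the linker, 16 of chondroitin and dermatan sulfate, 17 of heparan sulfate, the 2 endosulfatases Sulf1 and Sulf2, and the 3 hyaluronan synthases. Each of the 43 was found once. Glycosaminoglycans are long, mostly sulfated sugar chains of the cell surface and matrix. Chondroitin and heparan sulfate are built on a short xylose-started linker on a core protein and are then sulfated at set positions in the Golgi, which creates binding sites for growth factors and Wnt ligands, whereas hyaluronan is spun out unsulfated at the plasma membrane. In pancreatic tumours hyaluronan and proteoglycans are abundant in the matrix.

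RNA was sequenced from 4 lines of mouse pancreatic ductal adenocarcinoma (PDAC) cells from the iKPC mouse model, each carrying either WT-USP21 or ED-USP21, which gave 8 libraries, 4 per construct. USP21 is a deubiquitinating enzyme, and the labels do not spell out ED. The genotype labels name the constructs, WT-USP21 and ED-USP21, beside other alleles. These include ROSA_rtTA, an activator of tetracycline-responsive promoters, and p48-Cre, a Cre recombinase driven from a pancreatic gene. Lines 1 and 2 have the background FVB/C57Bl6 and lines 3 and 4 have C57BL/6. The labels do not say whether doxycycline was in the medium, and no cells without a construct were compared.

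Libraries held 72828184 to 107551210 gene counts. In 4 of 4 lines the mouse Usp21 gene had its lower level with WT-USP21: 147, 944, 539 and 941 CPM (reads of a gene scaled to a common library size) from line 1 to line 4, against 1658, 3133, 1662 and 2721 CPM for the other construct (exact 2-sided permutation test without pairing, p = 0.0286; exact sign-flip test within lines, p = 0.125; each the smallest its test can give). Each difference below thus goes with the level of Usp21 reads as well as the form of the construct, and these cannot be told apart. Usp21 reads of the construct and of the cells' own gene were not separated. Line 1 stood apart from the other lines, and lines 2 and 4 were close: 717 genes were at least 2-fold apart between their WT-USP21 libraries, against 3833 between those of lines 1 and 2. Lines 2 and 4 are not shown to be independent, which limits each n of 4. Of the 8 epithelial markers, the keratin genes Krt7, Krt8, Krt18 and Krt19 and the cadherin gene Cdh1 were high in each library, while Epcam stayed between 0.0645 and 5.35 CPM and Cldn4 at most 0.272 CPM. Fibroblast markers summed to 6.85 to 18.2 CPM with WT-USP21 and 4.79 to 8.39 CPM with ED-USP21, with Dcn, Lum and Thy1 at 0 counts in every library. Pdgfra ran from 3.35 to 5.82 CPM over all libraries. The highest sum belonged to the WT-USP21 library of line 4. There Col1a1, Col1a2 and Col3a1 stood at 4.80, 5.33 and 3.17 CPM, against 1.35, 0 and 0.0129 CPM with ED-USP21. Over the lines these collagen genes had no common direction. Endothelial markers summed to 2.42 to 7.48 CPM against 0.665 to 0.946 CPM (with WT-USP21 mostly Cdh5 in line 1 and Kdr in the other lines), leukocyte markers, mostly Cd68, to 6.14 to 13.2 against 5.17 to 16.2 CPM, and acinar markers, mostly Cela1, to 2.21 to 9.34 against 2.71 to 11.3 CPM, with Prss1, Ptf1a and Amy2a5 at 0 counts. The part of these levels in the results was not tested, and fewer cells that express a gene cannot be told apart from less RNA per cell.

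Promoters of Chst11, Hs6st2 and Sulf2, and of the relatives Chst12 and Hs6st1, are shown to give the sequence upstream of each start. They are the 200 bases before the outermost RefSeq start (build GRCm38.p6), written 5′ to 3′ on the gene's strand, with CG pairs in capitals. Chst11 lies at chr10:82985297-82985496 (plus strand), Chst12 at chr5:140505409-140505608 (plus), Hs6st2 at chrX:51681603-51681802 (minus), Hs6st1 at chr1:36068200-36068399 (plus) and Sulf2 at chr2:166155684-166155883 (minus).
Chst11: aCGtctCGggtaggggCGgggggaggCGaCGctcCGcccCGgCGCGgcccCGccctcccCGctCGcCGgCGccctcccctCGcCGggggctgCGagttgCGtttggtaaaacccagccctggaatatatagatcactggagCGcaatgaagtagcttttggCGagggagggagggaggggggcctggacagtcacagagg
Chst12: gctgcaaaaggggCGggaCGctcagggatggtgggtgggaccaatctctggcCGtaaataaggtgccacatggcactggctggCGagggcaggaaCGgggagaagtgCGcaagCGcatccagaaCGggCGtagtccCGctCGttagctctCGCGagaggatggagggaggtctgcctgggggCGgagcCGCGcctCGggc
Hs6st2: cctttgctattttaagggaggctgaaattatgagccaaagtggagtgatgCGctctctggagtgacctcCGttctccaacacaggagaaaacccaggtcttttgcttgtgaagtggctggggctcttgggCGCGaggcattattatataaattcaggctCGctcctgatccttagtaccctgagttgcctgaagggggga
Hs6st1: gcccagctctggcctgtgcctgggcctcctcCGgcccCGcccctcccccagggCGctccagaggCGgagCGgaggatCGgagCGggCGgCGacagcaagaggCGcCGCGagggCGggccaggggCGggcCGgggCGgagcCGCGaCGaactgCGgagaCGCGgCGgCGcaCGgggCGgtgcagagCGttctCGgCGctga
Sulf2: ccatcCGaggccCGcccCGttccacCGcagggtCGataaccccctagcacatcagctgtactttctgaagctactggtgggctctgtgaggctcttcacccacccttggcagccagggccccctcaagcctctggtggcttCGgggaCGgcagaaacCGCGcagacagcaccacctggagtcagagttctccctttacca
The stretch of Chst11 held 20 CG pairs, that of Chst12 17, that of Hs6st1 29, that of Sulf2 9 and that of Hs6st2 5. Members matched 40 RefSeq windows around gene starts, from 33 genes. No window was available for Chsy3, Csgalnact1, Ext1, Extl3, Has2, Has3, Ndst1, Ndst4, Sulf1 and Xylt1. The TCF/LEF words ATCAAAG and TTCAAAG, searched on both strands, occurred in 0 of these 40 windows and in 8.65% of all 32851 windows. Upstream of the start, member windows had a median of 63.6% G and C and 17 CG pairs, against 52.4% and 6 over all windows. The words are rich in A and T, so the shares are not a like comparison. The count says only that these letters are not in these windows.

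The question put to these genes is which enzymes differ between WT-USP21 and ED-USP21. Differences are given as log2 of WT-USP21 over ED-USP21, with standard errors (SE), from edgeR's quasi-likelihood test with the cell line as a block, and a gene was called at an adjusted p under 0.05 over the 16192 genes tested. Of the 43 members, 37 had enough reads to be tested. Within lines 0 were called, with 0.0247% of all genes called higher and 0% lower, and without the line as a block 0 were called as well (0% of all genes in either direction). At an unadjusted p under 0.05, edgeR within lines placed 7 members higher with WT-USP21 and 0 lower, that is 18.9% of those tested, against 5.40% of all genes higher and 2.88% lower. Without the block 4 members passed (2.42% of all genes), each higher with WT-USP21. The 7 were Hs6st2, Sulf2, Chst11, Chst7, Extl3, Has2 and Ndst3. DESeq2 with the same design called 3 of them higher (Chst11, Hs6st2 and Sulf2; 1.95% of all genes) and 0 members lower (0.562% of all genes). Without the block DESeq2 called 1 higher (Chst11; 0.309% of all genes) and 0 lower (0.0618% of all genes), and limma-trend called 0 in either design (0.0247% of all genes with the block and 0.0185% without). The median difference of the 37 was 0.10, and that of all genes tested was -0.00.

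The counts depended on line 1. With both of its libraries left out, edgeR within lines called 7 of 38 members higher (2.51% of all genes) and 0 lower (2.06% of all genes): Chst11, Hs6st2, Ndst3, Sulf2, Has2, Csgalnact1 and Extl3. Without the block the same omission gave 4 higher (1.49% of all genes) and 0 lower (0.851% of all genes). Without line 2, without line 3 or without line 4 it called 0 (0% of all genes each time). Line 1 also had the lowest Usp21 level of the WT-USP21 libraries, at 147 CPM, and the widest gap between the constructs, 11.3-fold against 2.89-fold to 3.32-fold in the other lines. The part of these Usp21 values in the results was not tested.

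**Figure D1:**
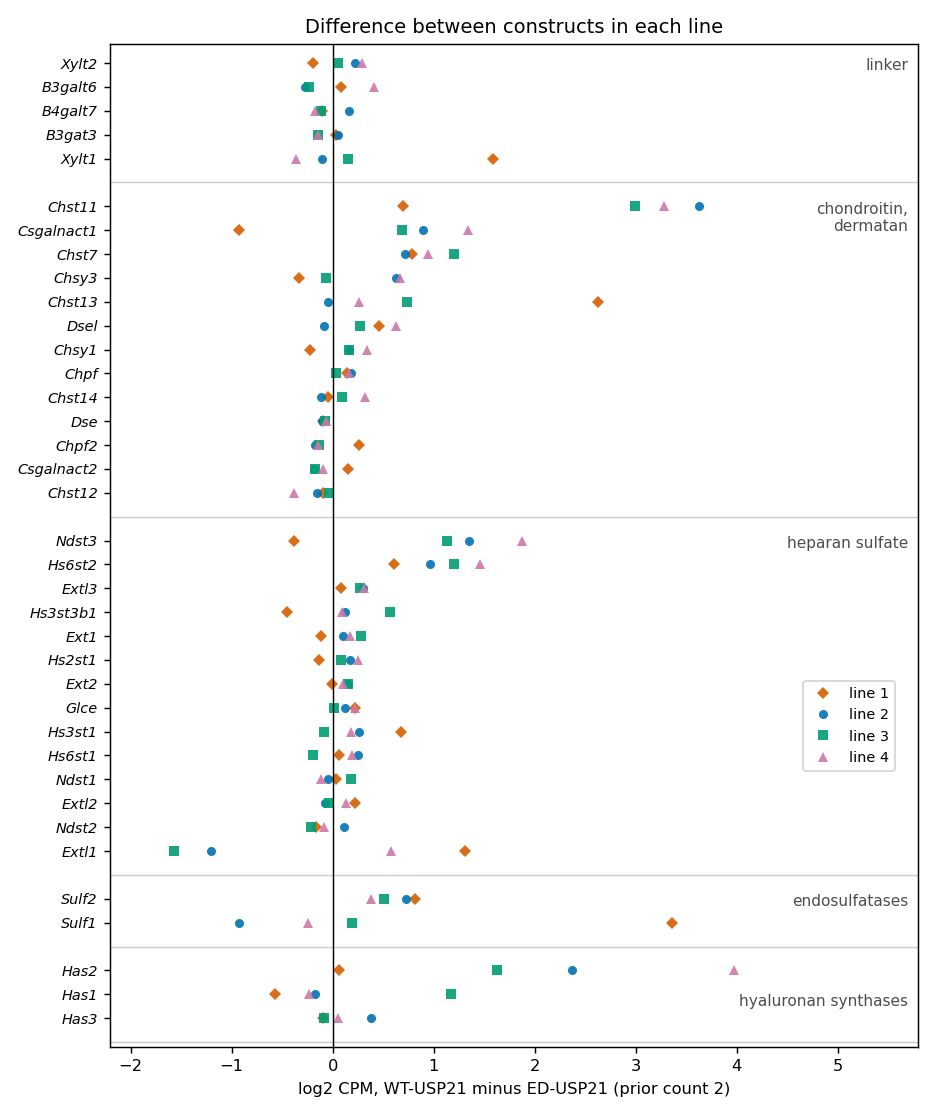
Difference in log2 CPM (prior count 2), WT-USP21 minus ED-USP21, for the 37 tested enzyme genes, grouped by chain type, with 1 symbol per cell line and 0 marked by the vertical line. Chst11, Ndst3, Hs6st2 and Has2 lie well to the right in lines 2, 3 and 4, most other genes lie near 0, and line 1 often departs from the other lines.

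The linker enzymes, which attach xylose, 2 galactoses and a glucuronic acid to the core protein, lay near 0 except for Xylt1, which had few reads in line 1. Their median difference within lines was -0.01, and 0 of the 5 lay the same way in 4 of 4 lines. B3gat3, which adds the glucuronic acid, ran from 31.3 to 36.2 CPM over the 8 libraries, B4galt7 from 16.9 to 20.02 CPM, and B3galt6 from 6.97 to 10.4 CPM. Of the xylosyltransferases that start the chain, Xylt2 ran from 24.1 to 34.3 CPM in all 8 libraries. Xylt1 was at 0.304 and 0.0867 CPM in line 1 and between 2.10 and 3.88 CPM in lines 2 to 4. Per kb of exon, Xylt2 averaged 7.08 and Xylt1 0.235 CPM per kb.

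Among the chondroitin enzymes, Chst11, which sulfates position 4 of N-acetylgalactosamine, had the widest gap between constructs. From line 1 to line 4 it stood at 3.76, 33.6, 23.1 and 32.0 CPM with WT-USP21 and at 2.31, 2.69, 2.88 and 3.28 CPM with ED-USP21. Its libraries did not overlap between constructs, which held for 2 members (with Extl3) in this direction and for 1.07% of all genes. The ED-USP21 libraries were close together in all lines, and the WT-USP21 library of line 1 was little above them. Ratios of WT-USP21 to ED-USP21 were 1.63, 12.5, 8.02 and 9.76 from line 1 to line 4. The difference was 2.72 (SE 0.51, edgeR adjusted p = 0.259), and 3.31 (SE 0.13, adjusted p = 0.000778) without line 1. DESeq2 called it within lines (adjusted p = 0.000840).

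The other 4-O-sulfotransferases did not share this pattern in their values. Chst12 had a lower CPM with WT-USP21 in each line, at 20.2, 11.3, 11.4 and 10.3 CPM against 21.6, 12.6, 11.6 and 13.5 CPM, a difference of -0.17 (SE 0.09, edgeR adjusted p = 0.710). Chst14, which acts on dermatan sulfate, ran from 7.76 to 16.96 CPM and Chst13 from 0.00963 to 0.697 CPM. In reads per kb of exon, Chst11 made up 39.1%, 28.8% and 38.1% of the 4 genes together in the WT-USP21 libraries of lines 2, 3 and 4, and 4.48%, 4.94% and 5.73% in their ED-USP21 partners. In line 1 its share was 3.95% and 2.37%. In lines 2 to 4 the summed level of the 4 genes was 15.5, 14.5 and 15.2 CPM per kb with WT-USP21 and 10.9, 10.6 and 10.4 CPM per kb with ED-USP21, while in line 1 it was 17.2 and 17.7 CPM per kb.

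Chst7, a 6-O-sulfotransferase, was low. In lines 2 to 4 it stood at 1.61, 1.02 and 2.32 CPM with WT-USP21 and at 0.972, 0.430 and 1.197 CPM with ED-USP21, and it had 3 reads and 1 read in line 1. Its difference was 1.01 (SE 0.24, edgeR adjusted p = 0.313). The other 6-O-sulfotransferase, Chst3, had 3 reads in all, and the 2-O-sulfotransferase Ust also had 3, too few to test. Chst15, which adds a second sulfate to 4-sulfated units, had 111 reads in all, 0 of them in line 1, and was not tested.

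Csgalnact1, which adds the first N-acetylgalactosamine and so commits a linker to chondroitin, moved in opposite ways. It was at 11.3 CPM with WT-USP21 and 21.4 CPM with ED-USP21 in line 1, but at 4.68 against 2.50, 6.13 against 3.80 and 6.07 against 2.38 CPM in lines 2, 3 and 4. The difference was 0.50 (SE 0.38, edgeR adjusted p = 0.809), and without line 1 the gene was called higher (0.98, SE 0.17, adjusted p = 0.0317). Its relative Csgalnact2 was the most abundant chondroitin enzyme per length, at 24.6 CPM per kb on average, and ran from 113 to 175 CPM.

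Of the polymerising enzymes of chondroitin, Chsy1 ran from 33.1 to 56.5 CPM, Chpf2 from 30.1 to 43.0 CPM and Chpf from 45.3 to 58.3 CPM. Chpf had a higher CPM with WT-USP21 in each line, at 1.03-fold to 1.13-fold, with a difference of 0.13 (SE 0.06, edgeR adjusted p = 0.619). Chsy3, low outside line 1, had ratios of 0.795, 1.57, 0.956 and 1.62 from line 1 to line 4 (difference 0.20, SE 0.24, adjusted p = 0.894). Of the epimerases that turn chondroitin into dermatan sulfate, Dse ran from 57.6 to 77.2 CPM and was lower in 4 of 4 lines (difference -0.09, SE 0.05, adjusted p = 0.741). Dsel stood at 3.29, 7.98, 10.997 and 9.63 CPM against 2.39, 8.5, 9.13 and 6.22 CPM (difference 0.32, SE 0.15, adjusted p = 0.646). Over the whole series 8 members were higher in 4 of 4 lines (9.02% of all genes) and 2 were lower (7.73% of all genes), Chst12 and Dse being the 2. The median difference of the 13 chondroitin and dermatan members tested was 0.13.

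Heparan sulfate begins with polymerases of the exostosin family and is then trimmed and sulfated by N-deacetylase/N-sulfotransferases and O-sulfotransferases. Hs6st2 adds sulfate at position 6 of glucosamine, and each line had more of it with WT-USP21. It stood at 9.79, 27.8, 45.4 and 45.3 CPM with WT-USP21 and at 6.42, 14.2, 19.7 and 16.5 CPM with ED-USP21. Line 1 was lowest with either construct, so the groups overlapped although each line went the same way. Ratios from line 1 to line 4 were 1.52, 1.96, 2.30 and 2.75. Its difference of 1.06 (SE 0.14, edgeR adjusted p = 0.127) had the smallest p of the 37 members. Hs6st2 was called in DESeq2 (adjusted p = 1.25e-08), in edgeR with no filter on low counts (adjusted p = 0.0257, with 0.211% of all genes called higher and 0.0115% lower), and in edgeR without line 1 (1.22, SE 0.10, adjusted p = 0.00670).

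Its relative Hs6st1 ran from 43.1 to 52.3 CPM in lines 2 to 4 and stood at 81.05 and 77.4 CPM in line 1, with a difference of 0.08 (SE 0.09, edgeR adjusted p = 0.877). Hs6st3 had 0 counts in every library. In reads per kb of exon Hs6st2 thus held 27.6%, 41.3% and 39.4% of the family with WT-USP21 in lines 2 to 4, against 18.8%, 21.1% and 21.3% with ED-USP21, and 7.90% and 5.56% in line 1.

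Ndst3, a minor member of the N-deacetylase/N-sulfotransferases that open the sulfation of the chain, stood at 5.99, 7.91, 8.78 and 9.90 CPM with WT-USP21 and at 7.84, 3.09, 4.0 and 2.69 CPM with ED-USP21. It was 2.56-fold, 2.20-fold and 3.68-fold higher with WT-USP21 in lines 2 to 4 and lower in line 1. The difference was 1.0 (SE 0.37, edgeR adjusted p = 0.550), and 1.46 (SE 0.17, adjusted p = 0.0113) without line 1. Ndst1 ran from 96.4 to 126 CPM and Ndst2 from 14.8 to 26.2 CPM, while Ndst4 had 6 reads in all. Ndst3 held at most 6.30% of the family per kb of exon, in the WT-USP21 library of line 4, and at least 1.67%, in its ED-USP21 partner.

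**Figure D2:**
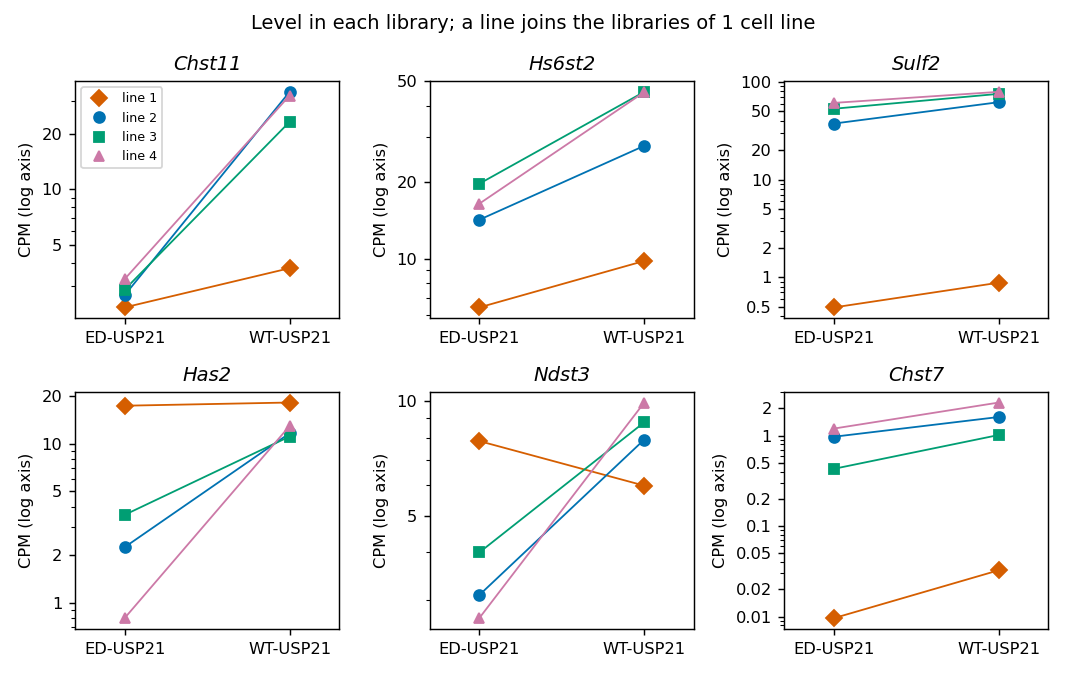
CPM (log axis) of 6 enzyme genes with ED-USP21 and WT-USP21, 1 symbol per library, with a connecting line for each cell line. For Chst11 the ED-USP21 libraries lie between 2.31 and 3.28 CPM and the WT-USP21 libraries of lines 2 to 4 between 23.1 and 33.6 CPM, while line 1 is flat for Has2 and far below the other lines for Sulf2 and Chst7.

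The exostosin family was mixed. Extl3, a starter enzyme of the heparan chain, stood at 44.3, 42.7, 44.9 and 43.7 CPM with WT-USP21 and at 41.8, 34.8, 37.1 and 35.2 CPM with ED-USP21. Its groups did not overlap, at ratios of 1.06, 1.23, 1.21 and 1.24 in lines 1 to 4. The difference was 0.24 (SE 0.06, edgeR adjusted p = 0.370), and 0.30 (SE 0.06, adjusted p = 0.0397) without line 1. Of the polymerase subunits, Ext2 ran from 74.7 to 85.8 CPM (difference 0.10, SE 0.06), and Ext1 from 62.5 to 80.0 CPM in lines 2 to 4 with 139 and 150 CPM in line 1 (difference 0.11, SE 0.08). Extl2 ran from 27.1 to 49.2 CPM. Extl1, low outside line 1, had no common direction, at ratios of 2.49, 0.403, 0.296 and 1.54 from line 1 to line 4 (difference -0.07, SE 0.55, edgeR adjusted p = 0.989).

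Of the other heparan modifiers, Hs2st1, the 2-O-sulfotransferase, ran from 162 to 222 CPM. Glce, the epimerase that makes iduronic acid, had a higher CPM with WT-USP21 in each line, by 1.01-fold to 1.17-fold (difference 0.14, SE 0.06, edgeR adjusted p = 0.623). Hs3st1, a 3-O-sulfotransferase known for the antithrombin-binding site, stood at 30.8, 75.9, 54.97 and 62.6 CPM against 19.2, 63.5, 58.5 and 55.3 CPM (difference 0.25, SE 0.12, adjusted p = 0.669). Hs3st3b1 ran from 1.14 to 4.75 CPM, and its relative Hs3st3a1 was listed at 0 in every library. The count of any reads common to both genes may be uncertain. The median difference of the 14 heparan members tested was 0.10.

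Sulf2, an extracellular enzyme that removes 6-O-sulfate from finished heparan chains, had a higher CPM with WT-USP21 in each line. Its levels were 0.880, 61.9, 75.4 and 79.03 CPM with WT-USP21 and 0.491, 37.4, 53.03 and 60.9 CPM with ED-USP21. The spread between line 1 and the rest was far wider than that between constructs. The ratio was 1.79, 1.65, 1.42 and 1.3 in lines 1 to 4, and the difference 0.58 (SE 0.09, edgeR adjusted p = 0.170), called without line 1 (0.54, adjusted p = 0.0205) and by DESeq2 (adjusted p = 8.56e-05). Sulf1 was low, at 0.5, 1.2, 2.67 and 2.14 CPM against 0.0289, 2.31, 2.33 and 2.54 CPM, with no common direction.

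Has2, a hyaluronan synthase of the plasma membrane, stood at 18.1, 11.6, 11.07 and 12.9 CPM with WT-USP21 and at 17.3, 2.23, 3.56 and 0.798 CPM with ED-USP21. The WT-USP21 libraries of all 4 lines lay between 11.07 and 18.1 CPM, and the ED-USP21 libraries of lines 2, 3 and 4 were lower, with that of line 1 as high as the WT-USP21 libraries. Ratios from line 1 to line 4 were 1.05, 5.21, 3.11 and 16.2. Its difference was 1.96 (SE 0.62, edgeR adjusted p = 0.456), and 2.59 (SE 0.41, adjusted p = 0.0261) without line 1. Has3 ran from 7.21 to 9.39 CPM in lines 2 to 4 and Has1 from 0.685 to 2.35 CPM over all libraries, with differences of 0.06 (SE 0.13) and 0.04 (SE 0.33). Per kb of exon, Has2 made up 60.1%, 60.9% and 65.6% of the family with WT-USP21 in lines 2 to 4, and 25.7%, 36.5% and 10.5% with ED-USP21, where Has3 held 55.2%, 53.5% and 67.4%.

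**Figure D3:**
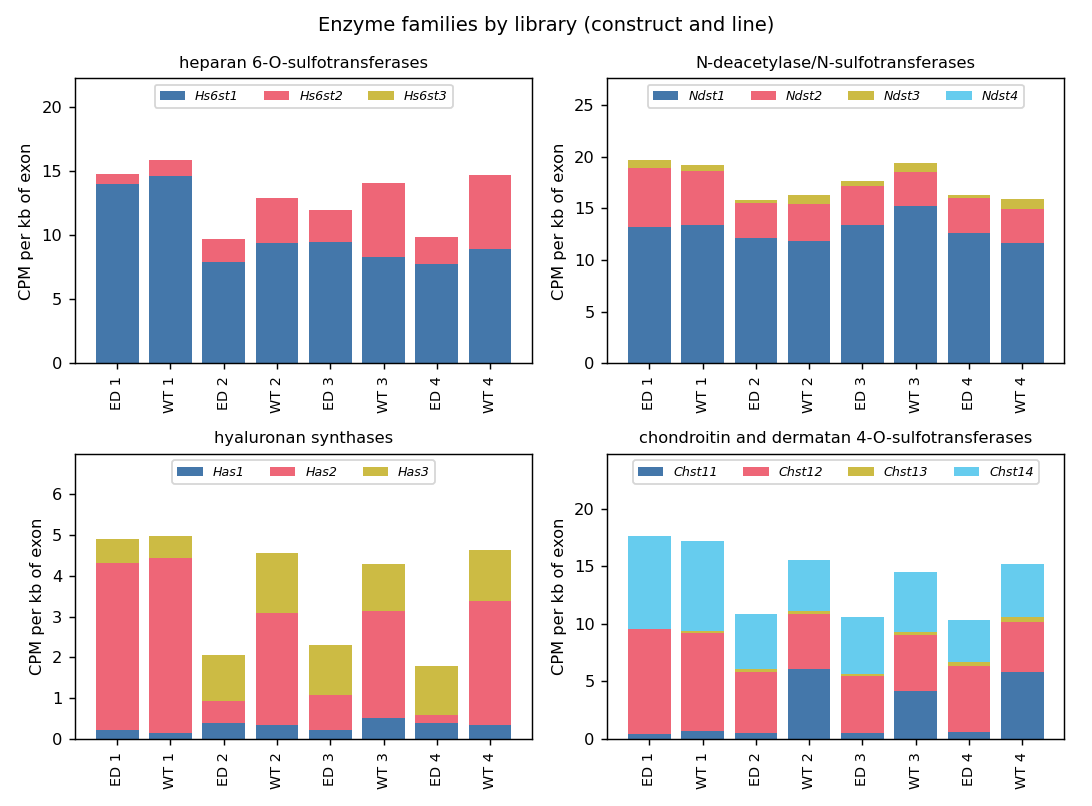
Summed level per kb of exon (CPM per kb, bars from 0) of 4 enzyme families in each library, labelled by construct and line, with the colours giving each gene. Chst11 and Has2 take a larger part of their family in the WT-USP21 bars of lines 2 to 4 than in the ED-USP21 bars beside them, and Ndst1 and Hs6st1 form most of theirs throughout.

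The same enzymes were then compared between cell lines, in edgeR's test of the 3 line terms with the construct in the model. Its p-values speak of these 4 lines only, since the 2 libraries of a line are its only repeats. Of the 37 members, 18 differed between lines (24.8% of all genes). In 11 of the 18 line 1 was the highest and in 7 the lowest, and without line 1 the count was 0 of 38 (0.398% of all genes). It was 17 without line 2 (15.4% of all genes), 16 without line 3 (18.0%) and 17 without line 4 (20.1%). Among lines 2 to 4 the median range of the line means of the 18 was 0.31 on the log2 scale, and the widest was 1.3, for Chst7.

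The contrasts were widest for Sulf2, at 0.686 CPM on average in line 1 and 61.3 CPM in lines 2 to 4 (89.3-fold, edgeR adjusted p = 0.000102 for lines). Extl1, an exostosin-like gene, went the other way, with 18.5 and 7.45 CPM in line 1 and 0.105 to 0.419 CPM elsewhere (48.6-fold, adjusted p = 0.00562). Chsy3, a chondroitin polymerase, stood at 7.82 and 9.83 CPM in line 1 against 0.322 to 0.615 CPM (18.5-fold, adjusted p = 0.00121), and Xylt1 was 15.2-fold lower in line 1 than in lines 2 to 4 (adjusted p = 0.0124). Chst7, with its 3 reads and 1 read in line 1, was also called (adjusted p = 0.00192).

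The other members called between lines differed by less. In line 1 Ext1 was 2.11-fold, Glce 1.77-fold, Chst12 1.78-fold, Chst14 1.73-fold, Hs6st1 1.66-fold, Extl2 1.58-fold and Ndst2 1.57-fold the mean of lines 2 to 4, and Csgalnact1 3.84-fold and Hs3st3b1 2.37-fold. In the other direction Hs6st2 was 3.47-fold, Dsel 3.08-fold, Hs3st1 2.47-fold and Has3 2.14-fold lower in line 1. Chst11 and Has2 were not called between lines (adjusted p = 0.335 and 0.176), nor were the linker enzymes other than Xylt1.

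**Figure D4:**
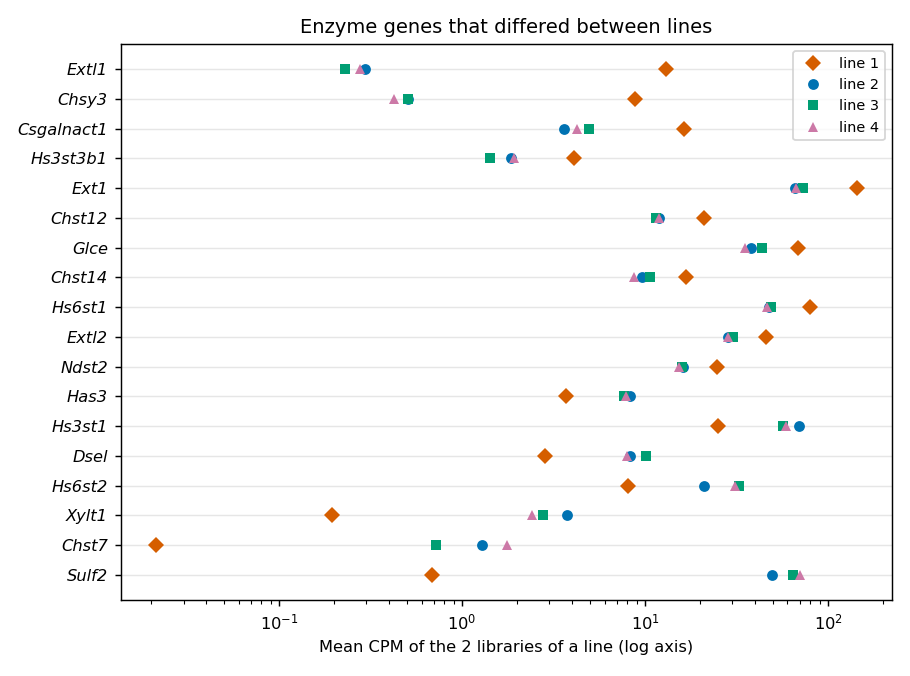
Mean CPM (log axis) of the 2 libraries of each line for the 18 enzyme genes called between lines, ordered by the ratio of line 1 to the other lines. Line 1 lies to the right for the upper 11 genes and to the left for the lower 7, while lines 2, 3 and 4 lie within 0.31 of each other at the median and 1.3 at the widest, for Chst7, on the log2 scale.

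In line 1 alone, the genes at least 2-fold higher with WT-USP21 were others than in lines 2 to 4. They were 4 of 37 members, Xylt1, Chst13, Extl1 and Sulf1 (6.06% of all genes), of which Chst13 had 1 read and Sulf1 had 3 in the ED-USP21 library, so that neither has a firm ratio. In lines 2, 3 and 4 there were 3, 6 and 5 such members (3.31%, 5.01% and 5.27% of all genes), and Chst11, Ndst3 and Has2 were in all of these. At least 2-fold lower with WT-USP21 were 0 members in line 1 (3.29% of all genes), 1 in line 2 (4.92%), 1 in line 3 (2.20%) and 0 in line 4 (5.34%), Extl1 both times.

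The genes around these enzymes were taken as lists of core proteins, sugar and sulfate donors, degrading enzymes and hyaluronan binders. Within lines edgeR called 0 members of any of these lists (0.0247% of all genes called higher and 0% lower). Without line 1 it called 1 of 9 heparan core proteins and 1 of 17 degrading enzymes higher. So were 2 of 5 hyaluronan binders (2.51% of all genes). Lower were 2 of 7 chondroitin core proteins, 2 of 18 donor genes and 1 of 5 hyaluronan binders (2.06% of all genes). Of 9 heparan core proteins tested the median difference was 0.09. Among them Sdc3, a syndecan, stood at 15.4 ± 0.774 against 8.55 ± 6.46 CPM (SD, n = 4 each), and differed by 1.11 (SE 0.35, edgeR adjusted p = 0.455); the test called it higher without line 1 (adjusted p = 0.00587), as did DESeq2 with all lines (adjusted p = 0.0254). Tgfbr3, a part-time proteoglycan that binds TGF-beta, was at 0.401 ± 0.181 against 0.0568 ± 0.0818 CPM (DESeq2 adjusted p = 0.0472), and Sdc4 at 425 ± 35.1 against 385 ± 49.9 CPM.

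Of 7 chondroitin core proteins tested the median difference was -0.21. Acan, the large proteoglycan of cartilage, was abundant and had a lower CPM with WT-USP21 in each line, at 313 ± 60.1 against 389 ± 39.04 CPM (difference -0.33, SE 0.07, edgeR adjusted p = 0.279), and was called lower without line 1 (adjusted p = 0.0226) and by DESeq2 (adjusted p = 0.00750). Without line 1, 2 members of this list were called lower (2.06% of all genes) and 0 higher (2.51% of all genes). Cspg4 and Cd74 had averages below 1 CPM with either construct.

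Of 18 donor supply genes tested the median difference was -0.03. Papss2, which makes the sulfate donor PAPS, stood at 43.4 ± 21.2 against 54.99 ± 13.5 CPM (difference -0.42, SE 0.15, edgeR adjusted p = 0.521), and was called lower without line 1 (adjusted p = 0.0418). Uap1, which makes UDP-N-acetylglucosamine, had a difference of -0.15 (SE 0.07). Of the linker kinase and phosphatase, Fam20b and Acpl2, the differences were -0.05 each. The 3-O-sulfotransferases Hs3st2 and Hs3st4 had 0 counts, and Hs3st5 and Hs3st6 were too low to test.

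Of 17 degrading enzymes tested the median difference was 0.01. Hyal1, a hyaluronidase, was higher in 4 of 4 lines, by 0.33 (SE 0.13, edgeR adjusted p = 0.591). Cd44, the main hyaluronan receptor, was higher in 4 of 4 lines, at 431 ± 54.0 against 330 ± 78.3 CPM (difference 0.41, SE 0.08, edgeR adjusted p = 0.273), and was called by DESeq2 (adjusted p = 0.00154) and without line 1 (adjusted p = 0.0101). Stab1, a scavenger receptor, had a difference of 1.13 (SE 0.40) and Itih2, whose product is linked to hyaluronan, one of -0.54 (SE 0.21). Of the 4 keratan sulfate genes tested, B4galt1 was higher in 4 of 4 lines (0.24, SE 0.05, edgeR adjusted p = 0.279, DESeq2 adjusted p = 0.00307), and B3gnt2 and Chst1 had differences of -0.25 (SE 0.23) and -0.19 (SE 0.34).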

How the data were processed

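RNA of 8 libraries, 4 per construct, was measured as counts per gene. The deposited values are whole-number counts, not normalised, and the submitters' processing notes list HTSeq, STAR, TopHat, Cufflinks and CASAVA, and the build mm9; versions, roles, annotation and strand setting are not given in the sources used here. Without strand, overlapping and antisense genes cannot be separated. The 3 rows naming no gene stayed out of all totals; reads in no gene made up 11.4% to 20.6% of counts.

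CPM were computed with TMM scaling, log2 CPM with a prior count of 2. Tests were edgeR 4.0.16 quasi-likelihood fits in R 4.3.3 (filterByExpr, Benjamini-Hochberg adjustment over all genes tested), without and with the cell line as a block, and for line terms. The SE is the absolute log2 difference over the square root of F. Libraries of a number come from 1 cell line, per the labels; within a pair, deviations from the construct mean had correlations over genes of 0.770, 0.503, 0.468 and 0.347 in lines 1 to 4, while WT-USP21 of line 2 and ED-USP21 of line 4 reached 0.430, and WT-USP21 of line 4 and ED-USP21 of line 2 reached 0.364. Alternatives were DESeq2 1.42.0, limma 3.58.1 (limma-trend), RLE scaling, other filters, a robust spread and leaving out each line. On simulated counts the blocked fit recovered 74% of genes changed 2-fold and 94% of those changed 4-fold (15874 genes). The fit without the block recovered 26% and 65% of them. These shares hold for those counts only. Recovery of genes whose difference varies between lines, as that of Chst11 did here, was not tested.

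Levels per kb used exon lengths of GENCODE M21 (all transcripts joined), a later build than mm9. Named in full were the 12 members with the smallest p within lines and the 6 with the widest range between line means, and from each neighbouring list up to 3 genes of smallest p; a few others were named after their values were seen. Some items that this rule would name are not reported here. Members and lists were chosen with earlier results of these data known. The labels do not say that libraries are separate cultures beyond the line, so p-values measure only the spread between these samples.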

Additional observations from a re-analysis of the deposited data

Results flagged for a closer look

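Of 36 groups of 4 libraries examined (the gene counts, Usp21 and the members given in full, by construct), 8 had 1 library far from the other 3, where chance flags about 1 in 20 groups. The members examined include the 6 chosen for the widest range between line means, and each gene was examined in both constructs, so this number is not comparable with chance. In each of the 8 it was the library of line 1. With WT-USP21 it was high for Glce (73.9 CPM, others 37.8 to 43.9), Chst12 (20.2 CPM, others 10.3 to 11.4), Extl1 (18.5 CPM, others 0.105 to 0.337) and Chsy3 (7.82 CPM, others 0.493 to 0.615). With ED-USP21 it was high for Has2 (17.3 CPM, others 0.798 to 3.56), Extl1 (7.45 CPM, others 0.219 to 0.419) and Chsy3 (9.83 CPM, others 0.322 to 0.516), and low for Sulf1 (0.0289 CPM, others 2.31 to 2.54).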

How the results depend on the processing

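The count of members called between constructs depended on the tool, the filter and line 1. Without the line as a block it was 0 of 37, 1 with DESeq2 (Chst11; 0.309% of all genes higher), and 0 to 4 with a line left out, the 4 being Chst11, Ndst3, Hs6st2 and Has2 without line 1 (1.49% higher). With the replicate block it was 0, 3 with DESeq2 (1.95% of all genes higher), 1 with no filter on low counts (Hs6st2; 0.211% higher), and 0 to 7 with a line left out, the 7 without line 1 (2.51% higher); limma-trend called 0 members in either design (0.0247% and 0.0185% of all genes with and without the block). At an unadjusted p under 0.05 edgeR without the block found 4 members (2.42% of all genes). With all lines and the filter the block changed no call of a member in edgeR; with no filter Hs6st2 was called only with the block, and without line 1 so were Csgalnact1, Extl3 and Sulf2. The count of members called between lines was 18 (24.8% of all genes), and 0 to 17 with a line left out, the 0 without line 1 (0.398%). The Usp21 difference was -2.10, with p = 0.125 in the exact sign-flip permutation test within lines (the replicate block), the smallest p it can give; with a line left out it was -2.28 to -1.63, with exact permutation p = 0.1, again the smallest possible. The medians by chain type moved by less than the spread between lines in each alternative. The 12 members of smallest p kept their direction in every alternative in which they could be tested. They were chosen on the same libraries that the alternatives reuse, so the kept direction is no separate support.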
